A study of Mus musculus with 20 samples.

Results

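Tumours from mice given olaparib together with an antibody against VEGFA (PARPi+anti-VEGFA, n = 4) were set against tumours from untreated mice (n = 3). The groups were taken from the treatment labels, and they make up 7 of the 20 tumour libraries of the series. The comparison covered 18144 expressed genes of the 55406 in the count table. All tumours grew in C57/BL6 female mice after intraperitoneal injection of Trp53-/-Brca1-/- ID8 cells, which descend from mouse ovarian surface epithelium and here express luciferase. Olaparib was given by mouth at 40 mg/kg per day. The anti-VEGFA antibody was injected intraperitoneally at 20 µg, with repeat injections each week. Untreated mice are labelled as controls with no agent. A further comparison used 3 tumours given olaparib alone at the same dose (PARPi). The last one used 3 tumours given olaparib with 100 µg anti-CTLA-4 and 200 µg anti-PD-L1 antibody (PARPi+checkpoint blockade). The line is one derivative cell line in one mouse strain, and every group, untreated included, carries the same deletions.

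Olaparib inhibits PARP enzymes, which bind broken DNA and help repair it. Cells that lack BRCA1 cannot mend the resulting breaks by homologous recombination and are killed by PARP inhibition. VEGFA is a secreted ligand that makes endothelial cells sprout through the receptor KDR, and it also lowers the display of adhesion molecules that leukocytes need to leave vessels. An anti-VEGFA antibody binds the secreted protein, so the level of Vegfa mRNA is no measure of how well it acted.

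Values are read counts scaled to effective library size (CPM). Changes are log2 fold changes of PARPi+anti-VEGFA over untreated tumours ± SE, and a gene was called at a Benjamini-Hochberg adjusted p under 0.05 in edgeR's quasi-likelihood test over all 18144 genes. Library totals ran from 26.9 to 34.0 M counts with PARPi+anti-VEGFA and from 29.3 to 31.4 M in untreated tumours. The labels number the replicates without naming the animals. The p-values rest on a spread between samples that was estimated over all 20 libraries, including groups outside the comparison. Bulk tissue was read, so a lower level can mean fewer cells of a type or less RNA per cell, and these cannot be told apart.

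Mesothelial and epithelial genes, which mark the ID8 cells and the peritoneal lining, were read in both groups. Wt1 averaged 852 CPM with PARPi+anti-VEGFA and 1017 CPM in untreated tumours, and Krt8 averaged 328 CPM with PARPi+anti-VEGFA and 352 CPM in untreated tumours. The epithelial claudin Cldn3 was near 0, at 0.680 CPM with PARPi+anti-VEGFA and 0.642 CPM in untreated tumours. These 3 genes were chosen after their values were seen. Of the 14 genes of the epithelial and mesothelial list, 7 fell, Msln and Krt7 among them, and 2 rose, with a median log2 change of -0.28. Neither deletion could be checked, because no tumour with intact genes was analysed here and transcript counts need not drop after a deletion. Trp53 had 59.0, 60.6, 58.3 and 63.5 CPM with PARPi+anti-VEGFA, against 58.3, 54.6 and 57.6 CPM in untreated tumours. Brca1 averaged 20.9 ± 2.98 CPM with PARPi+anti-VEGFA (SD, n = 4) and 18.5 ± 0.973 CPM in untreated tumours (SD, n = 3). Both genes had overlapping groups, with log2 changes of 0.09 ± 0.08 (adjusted p = 0.519) and 0.18 ± 0.18 (adjusted p = 0.550).

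The libraries of the groups also differed in RNAs taken here as marks of library preparation, which was not tested, and in genes of neighbouring tissue. Rn7sk, a small nuclear RNA, and Lars2 and Mir6236, loci with ribosomal RNA-like sequence, together averaged 2.73, 2.74, 2.81 and 2.72 log2 CPM with PARPi+anti-VEGFA, against 4.47, 4.82 and 4.62 in untreated tumours. These ranges lay well apart. Adipocyte genes averaged 3.33 and 2.53 log2 CPM in PARPi+anti-VEGFA replicates 2 and 3, 0.76 and 1.06 in replicates 1 and 4, and -0.04 to 0.08 in untreated tumours. Pancreatic acinar genes averaged 5.74 and 5.87 log2 CPM in PARPi+anti-VEGFA replicates 1 and 4, -2.36 and -2.48 in replicates 2 and 3, and -2.04 to 0.70 in untreated tumours. Erythroid genes were highest in untreated replicate 2, at 3.06 log2 CPM.

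**Figure D1:**
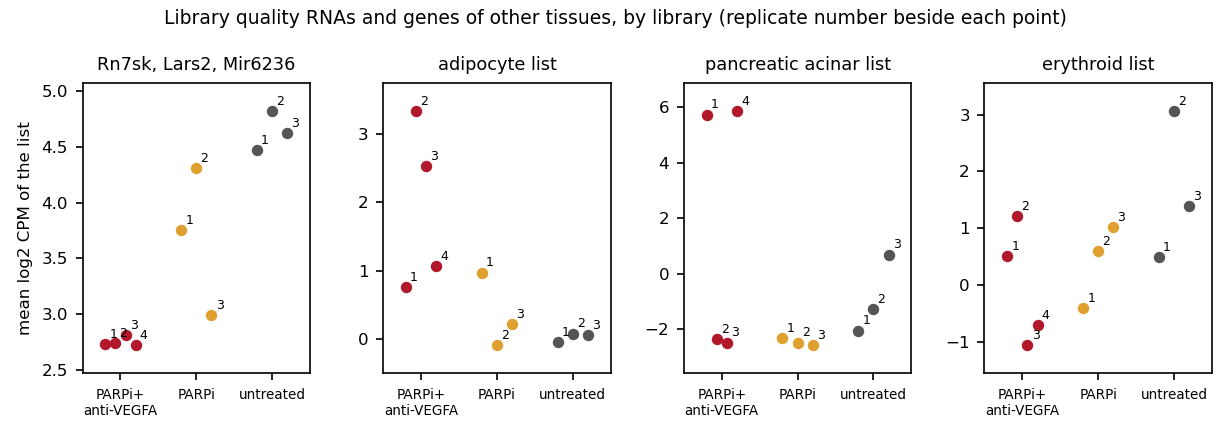
Mean log2 CPM of the library quality RNAs and of genes of fat, exocrine pancreas and red blood cells in each library, with the replicate number beside each point, for PARPi+anti-VEGFA, PARPi and untreated tumours. The quality RNAs lie between 2.72 and 2.81 with PARPi+anti-VEGFA, below the 4.47 to 4.82 of untreated tumours, and acinar genes are high in PARPi+anti-VEGFA replicates 1 and 4.

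PARPi+anti-VEGFA tumours differed from untreated tumours in 3228 genes, of which 1812 were higher and 1416 lower. These were 17.8% of the genes tested, 9.99% higher and 7.80% lower, and the median log2 change over all genes was -0.02. A change of at least 2-fold was seen in 605 of the higher and 140 of the lower genes. Without untreated replicate 3 the count was 1991. With the level of the 3 quality RNAs as a covariate, 0 genes were called by edgeR and 2457 had an unadjusted p under 0.05, against 5838 without it. The fitted changes did not all shrink. The median with the covariate, against that without it, was 1.06 against 1.10 for T cell genes, 1.93 against 1.68 for plasma cell, 0.72 against 0.70 for macrophage and 0.42 against 0.43 for MHC class II genes. It was 0.84 against 1.21 for natural killer cell, 0.25 against 0.47 for type I interferon and 0.24 against 0.58 for interferon gamma genes. It was -0.30 against -0.58 for pericyte and 0.12 against 0.40 for proliferation genes. The sign turned for VEGF (0.18 against -0.13), tip cell and vessel growth (0.30 against -0.06), endothelial identity (0.16 against -0.08) and hypoxia genes (0.09 against -0.10). It also turned for homologous recombination (-0.10 against 0.03), mast cell and eosinophil (-0.28 against 0.02), skeletal muscle (0.38 against -0.02) and acinar genes (-5.36 against 5.85). The 3 quality RNAs separated these groups, so between them the covariate came close to a group label. Treatment and library quality cannot be told apart by the calls in this comparison, for any gene below.

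Across the lists of pathways and cell types, 191 of 498 measured members rose and 22 fell. T cell, natural killer cell, plasma cell and MHC class I lists had nearly all members higher, and most pericyte and several mesothelial genes were lower. The libraries of the groups did not overlap in 27.1% of all genes tested. A fit without libraries high in acinar genes kept PARPi+anti-VEGFA replicates 2 and 3, which are high in adipocyte genes. Without those replicates and the other libraries high in adipocyte genes, 1609 genes were called in all. The treated libraries kept were then replicates 1 and 4, which are high in acinar genes, so neither fit was free of both tissues. With the adipocyte-high libraries left out, 11 of 12 acinar genes were called higher. In that fit 15 T cell, 9 cytotoxic and 8 plasma cell genes were called, but counts fell to 3 for natural killer cell, 4 for macrophage, 2 for dendritic cell, 2 for MHC class II, 2 for type I interferon, 4 for interferon gamma, 4 for chemokine and 2 for proliferation genes, and to 0 for large peritoneal macrophage, VEGF and PARP family genes.

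**Figure D2:**
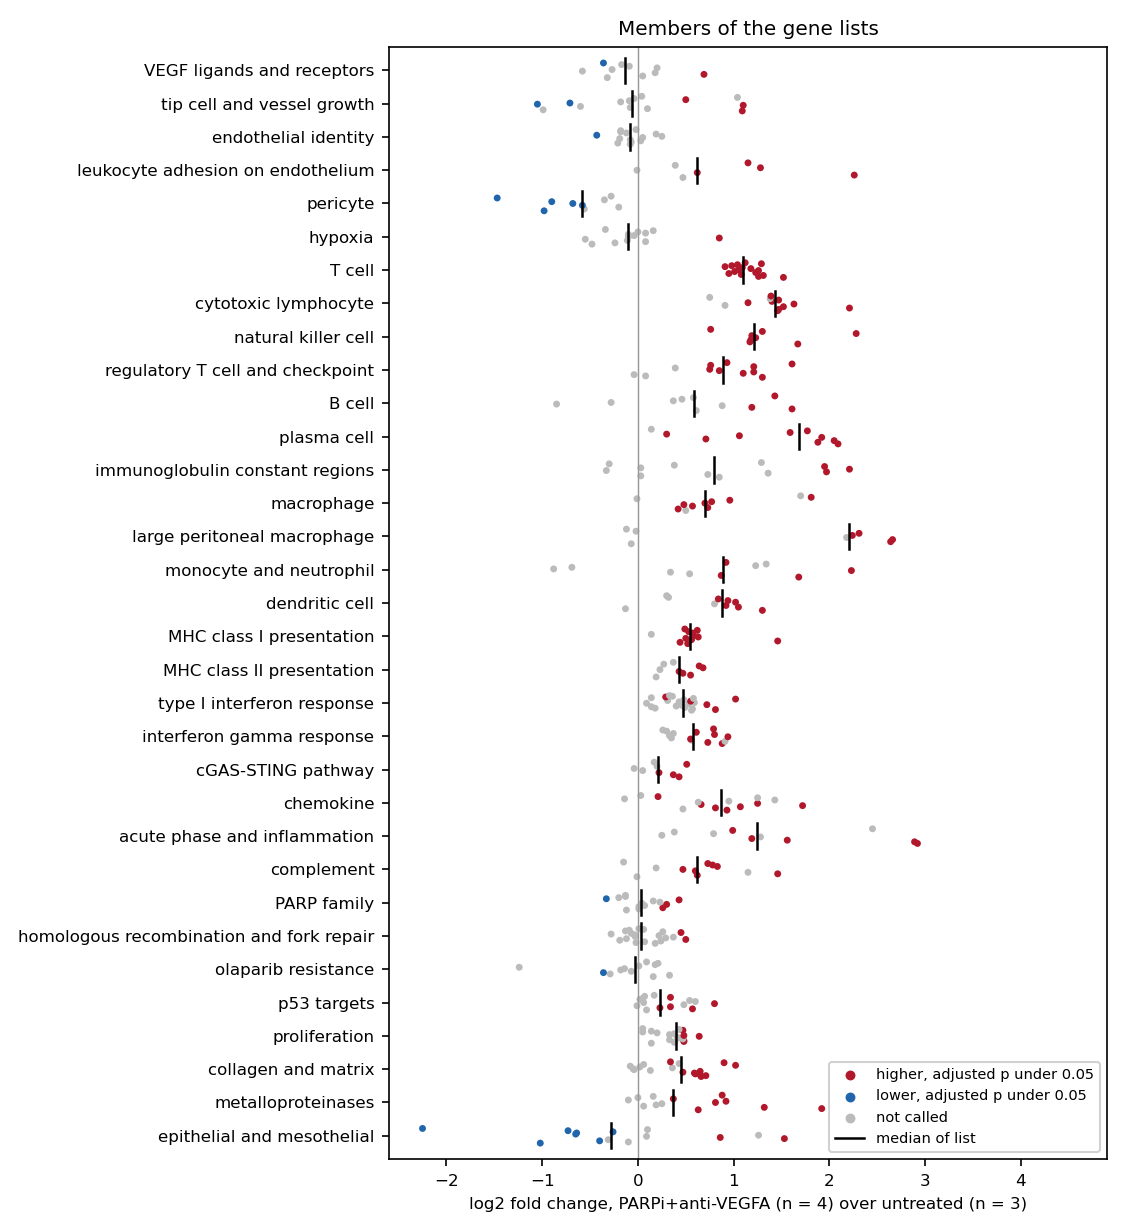
Log2 fold change of PARPi+anti-VEGFA over untreated tumours for each measured member of the gene lists, 1 point per gene, with called genes in red (higher) or blue (lower), others in grey, and the median as a black line. The T cell median is 1.10, the plasma cell median 1.68 and the pericyte median -0.58, beside -0.02 over all genes tested.

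The genes with the smallest p included a catenin-like protein, leukocyte genes, matrix proteins and the quality RNA Lars2 (rank 8). Ctnnal1, a catenin-like protein (chromosome 4, 56810935 to 56865188, minus strand, GRCm38), had 61.3, 55.8, 53.2 and 49.1 CPM with PARPi+anti-VEGFA, against 87.9, 87.2 and 83.4 CPM in untreated tumours. The log2 change was -0.65 ± 0.06 (adjusted p = 6.44e-05). A lack of overlap between the groups was part of how the genes of this paragraph were chosen. Ccdc88b (chromosome 19, 6844623 to 6858211, minus strand), a gene of T cells and other leukocytes, had 41.2, 41.2, 36.1 and 39.6 CPM with PARPi+anti-VEGFA, against 17.9, 18.4 and 18.7 CPM in untreated tumours. The rise was 1.10 ± 0.12 (adjusted p = 1.49e-04). Wt1os, antisense to Wt1, fell by 0.55 on the log2 scale (SE 0.06), but the strand setting of the counting is not given and its reads may be Wt1's. Ms4a4d rose by 1.34 ± 0.15, the matrix proteins Svep1 and Spon1 by 1.22 ± 0.14 and 0.97 ± 0.11, and the laminin chain Lama3 fell by 0.66 (SE 0.08), each with an adjusted p of 1.54e-04. All of these calls held when any 1 library was left out.

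The largest rises included genes of fat. Car3, a carbonic anhydrase abundant in fat, had 5.30, 57.1, 25.6 and 3.44 CPM with PARPi+anti-VEGFA, against 1.39, 2.52 and 2.28 CPM in untreated tumours. The adipokine Cfd had 5.83, 43.7, 17.6 and 3.55 CPM with PARPi+anti-VEGFA and 1.70 ± 0.153 CPM in untreated tumours (SD, n = 3). Both were highest in PARPi+anti-VEGFA replicates 2 and 3, the libraries high in adipocyte genes, and without those libraries the adjusted p was 0.265 for Car3 and 0.0734 for Cfd. Plin4, a lipid droplet protein, had the same high libraries and rose by 2.91 ± 0.70, with an adjusted p of 0.0889 without them. Outside fat, Scand1 rose by 2.72 ± 0.39 and the channel subunit Kcnmb4 by 2.55 ± 0.28. Kcnmb4 had 1.97, 1.35, 1.97 and 1.93 CPM with PARPi+anti-VEGFA, against 0.283, 0.269 and 0.364 CPM in untreated tumours. F7, a coagulation factor, rose by 2.83 ± 0.70, the tetranectin gene Clec3b by 2.58 ± 0.52 and the myeloid receptor Tarm1 by 2.47 ± 0.57.

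The largest falls included the quality RNAs Rn7sk (rank 2) and Mir6236 (rank 8) beside genes at moderate level in untreated tumours. Col10a1, a network-forming collagen, had 8.13, 11.3, 2.04 and 4.12 CPM with PARPi+anti-VEGFA, against 57.0, 51.6 and 39.0 CPM in untreated tumours. The fall was 2.93 on the log2 scale (SE 0.53, adjusted p = 0.00166). Pgc, the pepsinogen C gene, had 10.4, 12.2, 5.80 and 4.87 CPM with PARPi+anti-VEGFA, against 35.2, 48.0 and 36.2 CPM in untreated tumours. The log2 change was -2.25 ± 0.40, and a lack of overlap was part of the choice of this gene. Cyp17a1, an enzyme of steroid hormone synthesis, fell by 2.11 (SE 0.30), Anxa13 by 1.72 (SE 0.43), Rnf182 by 1.63 (SE 0.34), the olfactory receptor gene Olfr873 by 1.87 (SE 0.33) and the natriuretic peptide receptor gene Npr3 by 1.51 (SE 0.31). The calls of Stk32b (log2 change -2.0 ± 0.60) and of the complement gene Hc (-1.85 ± 0.49) were less stable. Stk32b was not called without PARPi+anti-VEGFA replicate 1 or 4 or untreated replicate 1 or 3 (adjusted p 0.0677 to 0.104), and Hc not without untreated replicate 1 (adjusted p = 0.138).

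Among the VEGF ligands and receptors, Vegfc rose, Nrp2 fell and 8 of 10 did not pass the test. These shares are near the 9.99% of all genes called higher and 7.80% called lower. Vegfa, the antibody's target, had 509.8, 602, 528 and 658 CPM with PARPi+anti-VEGFA, against 768, 765 and 613 CPM in untreated tumours. The groups overlapped, and the log2 change of -0.32 ± 0.18 did not pass (adjusted p = 0.234). Scaled to exon length, Vegfa was the most abundant ligand in PARPi+anti-VEGFA tumours at 134 CPM per kb, ahead of Vegfb at 16.5, Vegfd at 5.40, Vegfc at 4.18 and Pgf at 1.68 CPM per kb. Vegfc, the ligand of lymphatic growth, had 7.01, 9.16, 13.3 and 11.5 CPM with PARPi+anti-VEGFA, against 6.71, 5.71 and 6.58 CPM in untreated tumours. All PARPi+anti-VEGFA tumours were above all untreated ones, replicate 1 only just, and the change was 0.69 ± 0.17 (adjusted p = 0.00861). It was 0.0811 without the libraries high in adipocyte genes and 0.0516 in a fit of these groups alone. The co-receptor Nrp2 averaged 143 ± 15.9 CPM with PARPi+anti-VEGFA (SD, n = 4) and 183 ± 16.9 CPM in untreated tumours (SD, n = 3). Its change of -0.36 ± 0.11 (adjusted p = 0.0261) was not called without PARPi+anti-VEGFA replicate 3 or 4 or untreated replicate 1 or 2 (adjusted p 0.0743 to 0.103).

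Kdr, Flt1, Flt4 and Nrp1 overlapped between the groups, whereas all Nrp2 values were lower with PARPi+anti-VEGFA. Kdr, the main signalling receptor, had 37.0, 34.5, 33.4 and 28.2 CPM with PARPi+anti-VEGFA, against 26.5, 32.9 and 27.4 CPM in untreated tumours (log2 change 0.20 ± 0.10, adjusted p = 0.170). Flt1, the decoy-like receptor, had a change of -0.27 ± 0.13 (adjusted p = 0.159), the lymphatic receptor Flt4 of -0.09 ± 0.08 (adjusted p = 0.475) and the co-receptor Nrp1 of -0.17 ± 0.10 (adjusted p = 0.287). Vegfb changed by 0.05 ± 0.08 and Vegfd by 0.18 ± 0.15. Pgf, a ligand of Flt1, averaged 4.87 ± 1.37 CPM with PARPi+anti-VEGFA (SD, n = 4) and 7.27 ± 1.14 CPM in untreated tumours (SD, n = 3), with a change of -0.58 ± 0.25 (adjusted p = 0.114). It passed without PARPi+anti-VEGFA replicate 1 (adjusted p = 0.0341).

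Genes of vessel growth moved in both directions. Of 14 tip cell and vessel growth genes, 3 rose and 2 fell, beside 9.99% higher and 7.80% lower of all genes. The median log2 change was -0.06, near the -0.02 over all genes. Without untreated replicate 2, 3 rose and 0 fell. Angpt1, the stabilizing ligand of the receptor Tek, had 6.57, 6.48, 8.42 and 6.95 CPM with PARPi+anti-VEGFA, against 3.78, 3.69 and 2.51 CPM in untreated tumours. The groups lay apart and the change was 1.09 ± 0.18 (adjusted p = 8.48e-04). The apelin receptor Aplnr had 4.89, 6.98, 5.58 and 3.51 CPM with PARPi+anti-VEGFA, against 2.42, 2.79 and 2.12 CPM in untreated tumours (change 1.10 ± 0.23, adjusted p = 0.00414). Plvap, of the diaphragms of fenestrated endothelium, rose by 0.50 ± 0.12 (adjusted p = 0.00732). Dll4, the Notch ligand of tip cells, fell by 0.71 (SE 0.18, adjusted p = 0.0111), and was not called without untreated replicate 2 (adjusted p = 0.0830). Without the libraries high in adipocyte genes, the adjusted p was 0.0522 for Aplnr, 0.0875 for Plvap and 0.116 for Dll4, and Angpt1 was the 1 member still called.

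Most general endothelial genes did not pass the test. Of 14 endothelial identity genes none rose and 1 fell, beside 9.99% and 7.80% of all genes, with a median of -0.08. That was the junction protein Esam, at 22.2 ± 3.07 CPM with PARPi+anti-VEGFA (SD, n = 4) and 29.9 ± 1.32 CPM in untreated tumours (SD, n = 3), and its call was lost without untreated replicate 1 (adjusted p = 0.0596). Eng, Robo4 and Ptprb had changes of 0.25 ± 0.15, -0.19 ± 0.13 and -0.18 ± 0.14, which did not pass (adjusted p 0.257, 0.311 and 0.409).

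Adhesion molecules for leukocytes rose in 4 of 7 cases, with a median of 0.62. Vcam1 had 140.4, 146, 188 and 179 CPM with PARPi+anti-VEGFA, against 92.2, 114 and 112 CPM in untreated tumours. All PARPi+anti-VEGFA tumours were higher, by 0.62 ± 0.12 (adjusted p = 0.00189). Icam2 had 6.42, 6.18, 9.99 and 7.71 CPM with PARPi+anti-VEGFA, against 2.46, 3.26 and 3.64 CPM in untreated tumours (change 1.28 ± 0.29, adjusted p = 0.00570). P-selectin, Selp, rose by 2.26 ± 0.67 and the chemokine-binding venule protein Ackr1 by 1.15 ± 0.35. Selp was not called without PARPi+anti-VEGFA replicate 3 or 4 or without any of the 3 untreated libraries (adjusted p 0.0501 to 0.0839), and Ackr1 not without PARPi+anti-VEGFA replicate 2 or 4 or untreated replicate 1 or 3 (adjusted p 0.0507 to 0.128). The list count was 2 without PARPi+anti-VEGFA replicate 4, untreated replicate 1 or untreated replicate 3. Vcam1, Icam2 and Selp are also made by macrophages or platelets.

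Pericyte genes were lower as a group. All 9 had a negative change, 5 fell past the threshold, and the median was -0.58. Kcnj8, a potassium channel of pericytes, had 3.15, 2.83, 2.59 and 2.53 CPM with PARPi+anti-VEGFA, against 5.26, 6.15 and 4.20 CPM in untreated tumours. The change was -0.90 ± 0.17 (adjusted p = 0.00189), with no overlap. Rgs5, a regulator of G protein signalling, had 158, 98.5, 84.1 and 75.5 CPM with PARPi+anti-VEGFA, against 195, 251 and 171 CPM in untreated tumours (change -0.98 ± 0.21, adjusted p = 0.00461). PARPi+anti-VEGFA replicate 1 was closest to the untreated tumours. Higd1b fell by 1.47 (SE 0.31) and Abcc9, the partner of Kcnj8, by 0.68 (SE 0.17, adjusted p = 0.0105, and 0.0875 without untreated replicate 2). Without untreated replicate 2, 3 members were called, and without the libraries high in adipocyte genes 2.

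**Figure D3:**
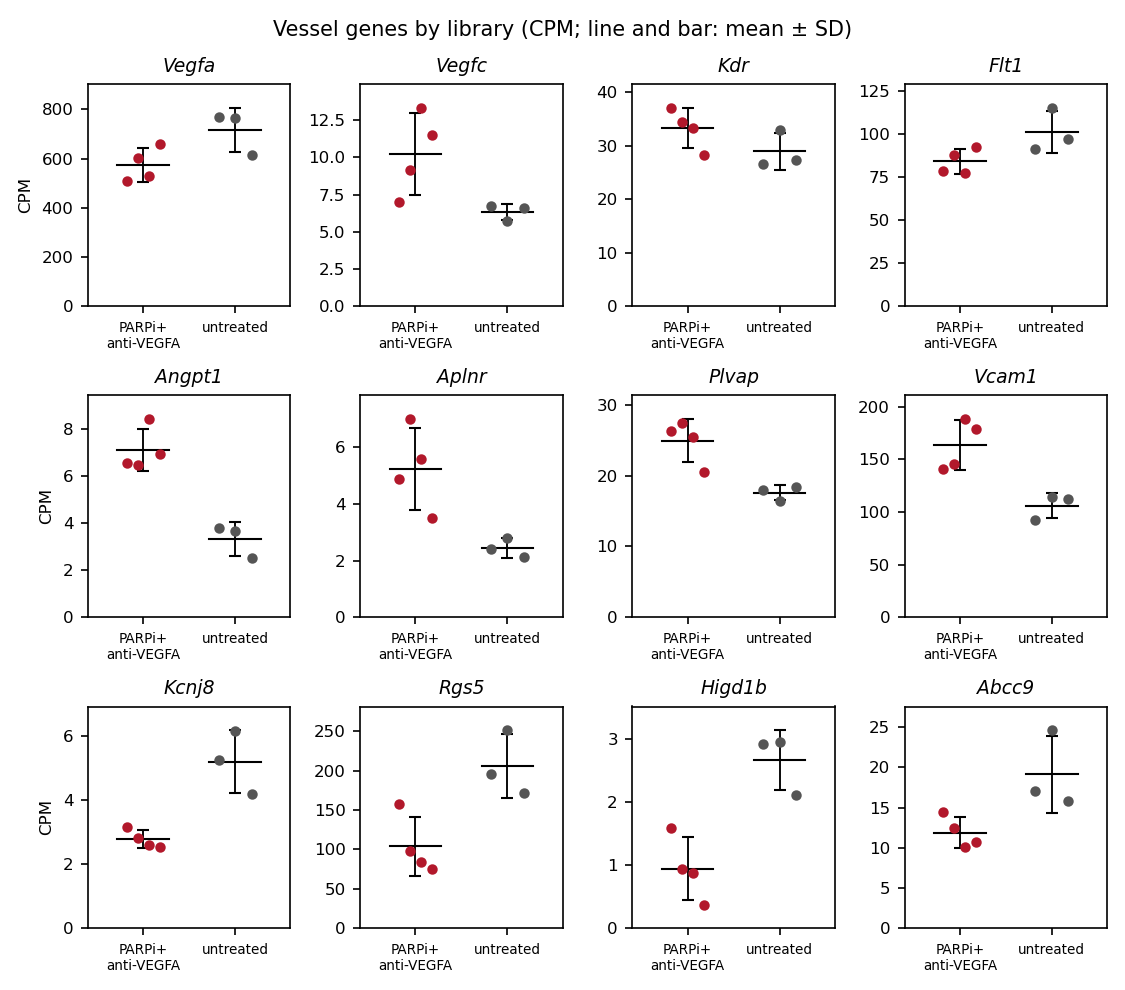
CPM of VEGF, vessel and pericyte genes in each PARPi+anti-VEGFA tumour (red, n = 4) and untreated tumour (grey, n = 3), with the mean as a line and the SD as a bar. Vegfa, Kdr and Flt1 overlap between the groups, whereas Angpt1, Aplnr, Plvap and Vcam1 are higher and Kcnj8, Rgs5, Higd1b and Abcc9 lower in all PARPi+anti-VEGFA tumours.

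Hypoxia genes had a median change of -0.10, and 1 of 13 passed the test, as higher, near the 9.99% of all genes. Without PARPi+anti-VEGFA replicate 2, 1 rose and 2 fell, and 0 were called without PARPi+anti-VEGFA replicate 3 or 4 or untreated replicate 1. The 1 gene called with all libraries was Bnip3, a mitophagy receptor. It had 17.2, 22.7, 32.9 and 36.0 CPM with PARPi+anti-VEGFA, against 14.2, 17.4 and 13.6 CPM in untreated tumours. The groups overlapped, and the change of 0.85 ± 0.26 (adjusted p = 0.0283) was not called without PARPi+anti-VEGFA replicate 3 or 4 or untreated replicate 1 or 3 (adjusted p 0.0776 to 0.103). Ankrd37 had a change of -0.55 ± 0.20 (adjusted p = 0.0639), and it was called as lower without PARPi+anti-VEGFA replicate 2 (adjusted p = 0.0209) or untreated replicate 3 (adjusted p = 0.0340).

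T cell genes were higher throughout. All 16 rose, with a median of 1.10 and a range of 0.91 to 1.52, and 15 or 16 were called with any 1 library left out. Lat, an adaptor of the T cell receptor, had 8.66, 7.54, 8.71 and 10.9 CPM with PARPi+anti-VEGFA, against 3.65, 4.37 and 3.14 CPM in untreated tumours. Lck, the kinase that starts T cell receptor signalling, had 16.8, 14.5, 18 and 17.1 CPM with PARPi+anti-VEGFA, against 6.64, 9.17 and 8.2 CPM in untreated tumours. No PARPi+anti-VEGFA tumour was as low as any untreated one for either gene, and the changes were 1.26 ± 0.19 (adjusted p = 5.78e-04) and 1.05 ± 0.18 (adjusted p = 0.00114). The adhesion receptor Cd2 had 11.7, 11, 16.4 and 13.8 CPM with PARPi+anti-VEGFA, against 3.71, 5.54 and 4.56 CPM in untreated tumours.

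Cytotoxic lymphocyte genes rose in 9 of 12 cases, with a median of 1.43. Cd8b1, a chain of the CD8 co-receptor, had 5.75, 4.33, 7.22 and 7.94 CPM with PARPi+anti-VEGFA, against 2.46, 2.82 and 1.55 CPM in untreated tumours (change 1.47 ± 0.24, adjusted p = 9.65e-04). Eomes, a transcription factor of cytotoxic cells, had 1.38, 1.56, 1.68 and 1.36 CPM with PARPi+anti-VEGFA, against 0.661, 0.739 and 0.298 CPM in untreated tumours (change 1.40 ± 0.27). The highest tumours were PARPi+anti-VEGFA replicates 3 and 4 for Cd8b1, and Cd8a shared them with 22 and 17.5 CPM. Gzma, a granule protease, averaged 2.13 ± 0.543 CPM with PARPi+anti-VEGFA (SD, n = 4) and 0.456 ± 0.119 CPM in untreated tumours (SD, n = 3). Without untreated replicate 3, 5 members were called.

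All 8 natural killer cell genes rose, with a median of 1.21. Xcl1, a chemokine that draws dendritic cells, had 8.22, 8.42, 9.92 and 7.48 CPM with PARPi+anti-VEGFA, against 3.18, 3.83 and 3.34 CPM in untreated tumours. The groups did not overlap, and the change was 1.30 ± 0.22 (adjusted p = 0.00114). The receptors Klrk1 and Klrd1 rose by 1.18 ± 0.24 and 1.23 ± 0.27. Klra8, one of a family of near-identical receptors, rose by 2.28 ± 0.60 and was not called without untreated replicate 2 or 3 (adjusted p 0.0651 and 0.0591). Of the 8 genes, 3 were called without untreated replicate 3, and 5 without PARPi+anti-VEGFA replicate 3 or untreated replicate 2. Activated T cells also express several of these genes.

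Regulatory T cell and checkpoint genes rose in 9 of 12 cases, with a median of 0.89. Foxp3, which defines regulatory T cells, had 10, 8.92, 11.4 and 8.73 CPM with PARPi+anti-VEGFA, against 5.04, 3.93 and 2.94 CPM in untreated tumours. All PARPi+anti-VEGFA tumours were higher, by 1.30 ± 0.22 (adjusted p = 9.88e-04). The inhibitory receptors Tigit and Lag3 rose by 1.21 ± 0.25 and 0.75 ± 0.16, and the costimulatory receptor Tnfrsf18 by 0.93 ± 0.16. Cd274, the gene of PD-L1, had 51.2, 41.1, 63.3 and 73.4 CPM with PARPi+anti-VEGFA, against 31.4, 39.9 and 29.9 CPM in untreated tumours. PARPi+anti-VEGFA replicate 2 was barely above untreated replicate 2, and the change was 0.76 ± 0.18 (adjusted p = 0.00831). Ctla4 rose by 1.10 ± 0.31 (adjusted p = 0.0201), a call lost without PARPi+anti-VEGFA replicate 3 or 4 or untreated replicate 3 (adjusted p 0.0534 to 0.100).

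In the B lineage, plasma cell genes rose more often than B cell genes, with 9 of 10 and 3 of 10 called and medians of 1.68 and 0.59, a difference that was not tested. Irf4, a transcription factor of plasma cells and activated lymphocytes, had 46.8, 33.3, 44.7 and 52.4 CPM with PARPi+anti-VEGFA, against 10.7, 11.1 and 13.4 CPM in untreated tumours. The groups lay far apart, with a change of 1.92 ± 0.30 (adjusted p = 6.32e-04). Prdm1, which drives plasma cell maturation, rose by 1.06 ± 0.17, Derl3, a secretory pathway protein, by 1.77 ± 0.33, and Pou2af1, a B cell coactivator, by 2.09 ± 0.26. Of the B cell genes, Cd79a had 40.0, 28.8, 45.3 and 50.4 CPM with PARPi+anti-VEGFA, against 11.1, 12.6 and 16.6 CPM in untreated tumours (change 1.61 ± 0.34, adjusted p = 0.00358). Fcrla rose by 1.43 ± 0.28. Cd79b rose by 1.19 ± 0.31, a call lost without untreated replicate 1 or 2 (adjusted p 0.0565 and 0.0618).

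Immunoglobulin constant regions rose in 3 of 12 cases. Igkc, the kappa light chain, had 19163, 11697, 20438 and 20295 CPM with PARPi+anti-VEGFA, against 3576, 4394 and 5899 CPM in untreated tumours. PARPi+anti-VEGFA replicate 2 was the lowest of its group, as it was for Irf4 and Cd79a, and still above all untreated tumours. Igha, of the IgA heavy chain, had 7544, 4463, 6599 and 7697 CPM with PARPi+anti-VEGFA, against 1107, 1241 and 1901 CPM in untreated tumours. Its change of 2.21 ± 0.58 (adjusted p = 0.0135) was not called without untreated replicate 1 or 2 (adjusted p 0.0589 and 0.0542). Ighg2c, one of several similar IgG genes among which counts may be split, rose by 1.97 ± 0.58, and was not called without PARPi+anti-VEGFA replicate 3 or 4 or untreated replicate 1 or 2 (adjusted p 0.0503 to 0.106). Without untreated replicate 1 or 2, 1 constant region was called.

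Macrophage genes rose in 8 of 11 cases, with a median of 0.70. C1qc, a complement C1q chain made by tissue macrophages, had 219, 246, 267 and 246 CPM with PARPi+anti-VEGFA, against 147, 157 and 149 CPM in untreated tumours. Its replicates were tight and the groups far apart, with a change of 0.70 ± 0.11 (adjusted p = 8.02e-04). C1qa rose by 0.57 ± 0.10, the scavenger receptor Msr1 by 0.96 ± 0.17 and the lysosomal protein Cd68 by 0.73 ± 0.14. Without untreated replicate 3, 5 members were called. Genes of alternatively activated macrophages rose in 3 of 8 cases, and the lectin Clec10a, which dendritic cells share, had 5.95, 11.3, 9.37 and 6.05 CPM with PARPi+anti-VEGFA, against 2.27, 4.00 and 2.18 CPM in untreated tumours (change 1.54 ± 0.30, adjusted p = 0.00265). Arg1, the enzyme arginase 1, had 19.6, 38.8, 56.7 and 126 CPM with PARPi+anti-VEGFA, against 23.1, 13.1 and 9.69 CPM in untreated tumours. The groups overlapped, and the change of 1.98 ± 0.63 was not called without PARPi+anti-VEGFA replicate 3 or 4 or untreated replicate 2 or 3 (adjusted p 0.0591 to 0.135). Mgl2 rose by 0.64 ± 0.18, a call lost without untreated replicate 1 or 3 (adjusted p 0.0682 and 0.0884). The list count was 1 without untreated replicate 3.

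Genes of large peritoneal macrophages split, and those that rose had large changes whose calls depended on the libraries fitted. Changes were positive for 5 members and negative for 3, the lowest at -0.12, and none was called lower. Of 8, 4 rose and the median was 2.21, yet 2 were called without PARPi+anti-VEGFA replicate 3 and 0 without PARPi+anti-VEGFA replicate 4 or without any of the 3 untreated libraries. In a fit of these groups alone 5 were called, whereas the main fit took its spread from all 20 libraries. Timd4, a receptor for dying cells, had 6.75, 6.21, 9.84 and 10.5 CPM with PARPi+anti-VEGFA, against 1.13, 1.91 and 0.959 CPM in untreated tumours (change 2.64 ± 0.77, adjusted p = 0.0252). Prg4, lubricin, had 92.0, 81.1, 99.6 and 105 CPM with PARPi+anti-VEGFA, against 15.4, 16.3 and 13.1 CPM in untreated tumours (change 2.66 ± 0.83, adjusted p = 0.0333). Both genes separated the groups in every library. F10 and Alox15, also made by these cells, rose by 2.24 ± 0.64 and 2.31 ± 0.72. The adjusted p of the 4 genes in the fits that lost them ran from 0.0503 to 0.113.

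Of 10 monocyte and neutrophil genes 4 rose, and 2 without untreated replicate 3. Changes were positive for 8 members and negative for 2, the lowest at -0.88, and none was called lower. Csf3r, the receptor for granulocyte colony-stimulating factor, had 22.1, 22.3, 24.1 and 26.6 CPM with PARPi+anti-VEGFA, against 11.1, 14.5 and 12 CPM in untreated tumours (change 0.92 ± 0.12, adjusted p = 2.69e-04). The groups did not overlap for Ly6c2, a monocyte surface protein with a near-identical copy, which rose by 1.68 ± 0.33. Ccr2, the receptor that brings monocytes into tissue, rose by 0.87 ± 0.23 and was not called without untreated replicate 3 (adjusted p = 0.0655). Of 10 dendritic cell genes 6 rose, and 3 without untreated replicate 3. Flt3, the growth factor receptor of dendritic cells, had 5.60, 6.01, 7.04 and 6.5 CPM with PARPi+anti-VEGFA, against 3.08, 2.42 and 2.12 CPM in untreated tumours (change 1.30 ± 0.24). Itgae and Xcr1, of cross-presenting dendritic cells, rose by 1.02 ± 0.21 and 1.05 ± 0.25.

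**Figure D4:**
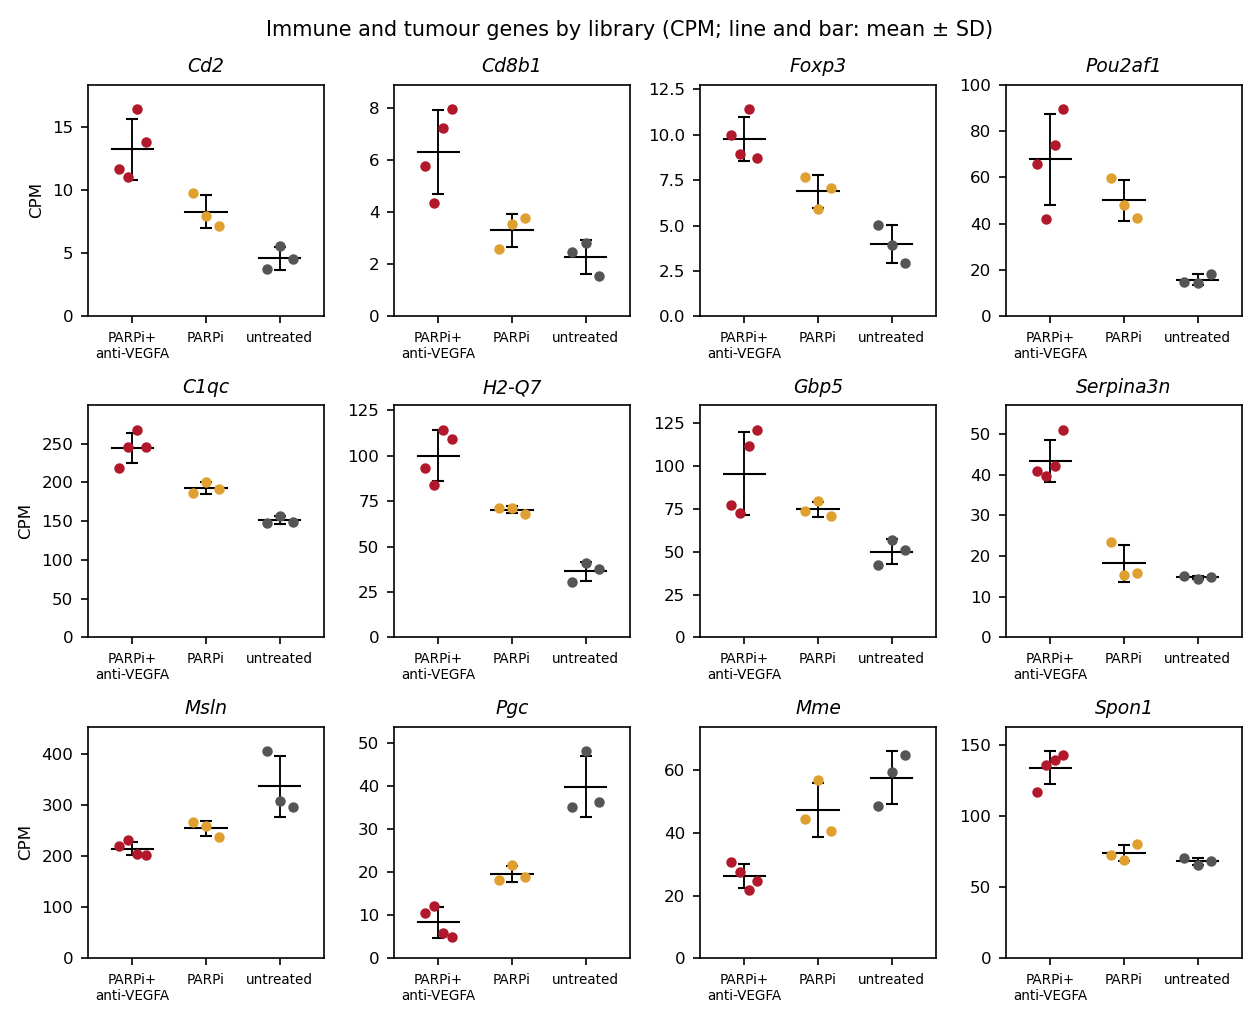
CPM of immune, inflammatory and tumour genes in each PARPi+anti-VEGFA tumour (red, n = 4), PARPi tumour (yellow, n = 3) and untreated tumour (grey, n = 3), with the mean as a line and the SD as a bar. Cd2 averages 13.3 CPM with PARPi+anti-VEGFA, 8.30 CPM with PARPi and 4.61 CPM in untreated tumours, while Pgc averages 8.34 CPM with PARPi+anti-VEGFA, 19.5 CPM with PARPi and 39.8 CPM in untreated tumours.

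Antigen presentation genes were higher. Of 12 MHC class I presentation genes 11 rose, with a median of 0.54, and 7 without untreated replicate 3. H2-Q7, a class I gene with near-identical neighbours among which reads may be split, had 93.0, 84.0, 114 and 109 CPM with PARPi+anti-VEGFA, against 30.5, 40.9 and 37.8 CPM in untreated tumours. The change was 1.46 ± 0.16 (adjusted p = 1.54e-04), and the groups lay more than 2-fold apart at their nearest values. Tap1 and Tap2, which pump peptides to class I molecules, rose by 0.63 ± 0.13 and 0.58 ± 0.09, and the class I gene H2-T23 by 0.56 ± 0.10. Of 9 MHC class II genes 5 rose, with a median of 0.43. H2-Ab1 had 881, 824, 1022 and 905 CPM with PARPi+anti-VEGFA, against 627, 658 and 579 CPM in untreated tumours (change 0.55 ± 0.12, adjusted p = 0.00537). H2-Eb1 rose by 0.47 ± 0.11 (adjusted p = 0.0552 without untreated replicate 3), and H2-Oa by 0.68 ± 0.18 (adjusted p 0.0660 and 0.0721 without untreated replicates 1 and 3). The class II count was 3 without PARPi+anti-VEGFA replicate 3 or 4, 2 without untreated replicate 1 and 1 without untreated replicate 3.

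All 22 type I interferon response genes had a positive change, 5 were called, and the median was 0.47. Zbp1, a sensor of unusual nucleic acid, had 77.9, 102, 135 and 142 CPM with PARPi+anti-VEGFA, against 50.7, 63.7 and 54.6 CPM in untreated tumours (change 1.02 ± 0.18, adjusted p = 0.00129). Ifit2 rose by 0.81 ± 0.15 and the transcription factor Irf7 by 0.55 ± 0.14. PARPi+anti-VEGFA replicate 1 was the lowest of its group for all 3 genes, and 14 members were called without it. The count was 3 without PARPi+anti-VEGFA replicate 3 or untreated replicate 1 or 3. Oas3, of a family of similar genes, rose by 0.72 ± 0.21, a call lost without PARPi+anti-VEGFA replicate 2 or 3 or any of the 3 untreated libraries (adjusted p 0.0516 to 0.0888).

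Of 14 interferon gamma response genes 7 rose, with a median of 0.58. Gbp5, a guanylate-binding protein of a family with close copies, had 77.5, 72.4, 112 and 121 CPM with PARPi+anti-VEGFA, against 42.2, 57.0 and 51.0 CPM in untreated tumours (change 0.94 ± 0.20, adjusted p = 0.00430). Cxcl10, a chemokine that draws T cells, had 67.6, 76.5, 97.0 and 96.6 CPM with PARPi+anti-VEGFA, against 46.8, 56.9 and 49.2 CPM in untreated tumours (change 0.73 ± 0.18, adjusted p = 0.0106). Replicates 3 and 4 of PARPi+anti-VEGFA were highest for both. Cxcl9 rose by 0.88 ± 0.22 and Iigp1 by 0.80 ± 0.23. The call of Cxcl9 was lost without untreated replicate 1 or 3 (adjusted p 0.0553 and 0.0629), and that of Iigp1 without PARPi+anti-VEGFA replicate 3 or 4 or untreated replicate 1 or 3 (adjusted p 0.0693 to 0.104). The count was 10 without PARPi+anti-VEGFA replicate 1, 3 and 4 without PARPi+anti-VEGFA replicates 3 and 4, and 2 without untreated replicate 1 or 3. In the cGAS-STING pathway, which senses DNA in the cytosol, 4 of 8 genes rose by small amounts, with a median of 0.21. Ikbke, a kinase of the pathway, rose by 0.51 ± 0.09 (adjusted p = 0.00163), Cgas by 0.43 ± 0.11 and Tmem173, the gene of STING, by 0.37 ± 0.10. Cgas was not called without untreated replicate 1 or 3 (adjusted p 0.0507 and 0.0553), and Tmem173 not without PARPi+anti-VEGFA replicate 3 or 4 or untreated replicate 1 or 2 (adjusted p 0.0527 to 0.0680). The pathway's count was 1 without untreated replicate 1, and 2 without PARPi+anti-VEGFA replicate 3 or 4 or untreated replicate 3.

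The promoters of 4 of these called genes are shown because they hold letters that the transcription factors of antigen presentation and interferon response are known to bind. They are 300 bases long, from 250 bases before to 50 after the start, in RefSeq's GRCm38.p6, 5′ to 3′ on the gene's strand. Capitals mark GAAANNGAAA, an interferon-stimulated response element-like motif, and GATTGG, the inverted CCAAT box of MHC promoters, each searched on both strands. H2-Q7 lies at chr17:35438905-35439204 (plus strand) and holds 1 CCAAT box match. H2-T23 at chr17:36032652-36032951 (minus strand) and Cxcl10 at chr5:92348840-92349139 (minus strand) hold 1 match of each motif. Gbp5 at chr3:142496684-142496983 (plus strand) holds 1 response element match.
H2-Q7: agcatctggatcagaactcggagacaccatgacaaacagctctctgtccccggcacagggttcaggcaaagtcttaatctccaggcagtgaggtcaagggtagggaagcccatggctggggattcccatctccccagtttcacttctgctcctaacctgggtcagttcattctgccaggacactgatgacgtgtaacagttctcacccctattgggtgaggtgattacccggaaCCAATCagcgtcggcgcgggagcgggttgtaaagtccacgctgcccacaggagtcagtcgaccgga
H2-T23: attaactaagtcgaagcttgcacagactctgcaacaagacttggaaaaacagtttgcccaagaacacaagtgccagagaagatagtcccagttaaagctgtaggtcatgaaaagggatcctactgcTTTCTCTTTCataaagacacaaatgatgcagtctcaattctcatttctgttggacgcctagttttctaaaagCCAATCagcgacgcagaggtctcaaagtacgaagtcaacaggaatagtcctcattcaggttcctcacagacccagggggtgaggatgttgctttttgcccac
Gbp5: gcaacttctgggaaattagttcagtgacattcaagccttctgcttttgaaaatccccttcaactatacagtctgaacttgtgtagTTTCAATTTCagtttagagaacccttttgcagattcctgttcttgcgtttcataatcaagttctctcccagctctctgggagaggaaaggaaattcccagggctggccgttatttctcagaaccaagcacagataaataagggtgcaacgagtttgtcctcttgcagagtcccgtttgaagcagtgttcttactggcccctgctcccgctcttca
Cxcl10: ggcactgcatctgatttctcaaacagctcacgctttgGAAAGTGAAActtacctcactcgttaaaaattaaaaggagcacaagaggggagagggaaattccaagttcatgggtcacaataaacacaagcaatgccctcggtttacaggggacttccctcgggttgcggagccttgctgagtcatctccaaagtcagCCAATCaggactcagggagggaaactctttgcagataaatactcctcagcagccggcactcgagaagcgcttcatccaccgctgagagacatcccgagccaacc

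Across 27025 genes with a promoter in the RefSeq table, 3.99% held GAAANNGAAA and 18.2% held GATTGG. The first motif was in 9 of 15 type I interferon response genes with a promoter in the table, 7 of 9 interferon gamma response genes, 2 of 10 class I genes and 0 of 6 class II genes. The second was in 7 of 10 class I genes, 6 of 6 class II genes, 3 of 9 interferon gamma genes and 0 of 15 type I interferon genes. A match describes the letters in this window and not a bound site.

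Chemokine genes rose in 7 of 14 cases, with a median of 0.87. Ccl22, which draws regulatory T cells, had 17.5, 17.8, 23.9 and 23.3 CPM with PARPi+anti-VEGFA, against 8.88, 9.34 and 7.74 CPM in untreated tumours (change 1.25 ± 0.18, adjusted p = 3.90e-04). Ccl12, a monocyte chemokine, had 14.6, 15.4, 16.1 and 15.6 CPM with PARPi+anti-VEGFA, against 8.66, 11 and 9.59 CPM in untreated tumours (change 0.66 ± 0.10). The groups lay apart for both. The related Ccl7 and Ccl8 rose by 1.07 ± 0.17 and 1.72 ± 0.37.

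Acute phase and inflammation genes rose in 5 of 10 cases, with a median of 1.24. Serpina3n, a secreted protease inhibitor, had 40.8, 39.7, 42.1 and 50.9 CPM with PARPi+anti-VEGFA, against 15, 14.3 and 14.9 CPM in untreated tumours. All PARPi+anti-VEGFA tumours were more than 2-fold above all untreated ones (change 1.56 ± 0.21, adjusted p = 3.18e-04). Serpina3g, from the same gene cluster of close copies, rose by 1.19 ± 0.19. Lrg1, which promotes vessel growth, had 2.59, 6.04, 4.85 and 2.76 CPM with PARPi+anti-VEGFA, against 0.724, 0.504 and 0.397 CPM in untreated tumours. Saa3, serum amyloid A3, had 26.1, 28, 55.4 and 147 CPM with PARPi+anti-VEGFA, with replicate 4 far the highest, against 7.21, 11.2 and 7.08 CPM in untreated tumours.

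Complement genes rose in 7 of 11 cases, with a median of 0.62. Serping1, the C1 inhibitor, had 294, 287, 336 and 352 CPM with PARPi+anti-VEGFA, against 166, 212 and 157 CPM in untreated tumours (change 0.83 ± 0.12, adjusted p = 4.20e-04). C4b, which has a near-identical copy, had 138, 178, 176 and 169 CPM with PARPi+anti-VEGFA, against 57.0, 69.6 and 54.2 CPM in untreated tumours (change 1.46 ± 0.28). Both genes separated the groups. The protease C1ra rose by 0.47 ± 0.07 and the C3a receptor C3ar1 by 0.73 ± 0.14.

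Epithelial and mesothelial genes, which mark the ID8 cells and the peritoneal lining, split. Of 14, 7 fell and 2 rose, and 4 fell without untreated replicate 1. Msln, mesothelin, had 220.0, 231, 205 and 203 CPM with PARPi+anti-VEGFA, against 405, 307 and 297 CPM in untreated tumours (change -0.65 ± 0.09, adjusted p = 3.06e-04). Krt7, a simple epithelial keratin, had 14.2, 10.5, 12.5 and 10.1 CPM with PARPi+anti-VEGFA, against 27.5, 19.1 and 25.4 CPM in untreated tumours (change -1.02 ± 0.17). Both were lower in every PARPi+anti-VEGFA tumour. Epcam, an epithelial adhesion molecule that exocrine pancreas also expresses, had 3.98, 3.68, 6.27 and 6.12 CPM with PARPi+anti-VEGFA, against 1.86, 1.68 and 1.65 CPM in untreated tumours (change 1.53 ± 0.25). The highest values were in PARPi+anti-VEGFA replicates 3 and 4, whereas acinar genes are high in replicates 1 and 4 and low in replicates 2 and 3. The part of that tissue in the change was not tested.

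Of 18 collagen and matrix genes 10 rose and 8 did not pass the test, with a median of 0.45. The number that rose was 4 without the libraries high in adipocyte genes. Lox, which crosslinks collagen, had 80.4, 108, 119 and 144 CPM with PARPi+anti-VEGFA, against 58.0, 57.1 and 51.6 CPM in untreated tumours (change 1.02 ± 0.16, adjusted p = 7.07e-04). Col5a2 had 320.3, 391, 372 and 355 CPM with PARPi+anti-VEGFA, against 253, 229 and 233 CPM in untreated tumours (change 0.59 ± 0.11). The groups lay apart in both cases. Col1a2 and Col6a2 rose by 0.71 ± 0.15 and 0.65 ± 0.15, with adjusted p of 0.0574 and 0.0862 without the libraries high in adipocyte genes. Of 13 metalloproteinases and their inhibitors 7 rose, and 7 or 8 with any 1 library left out. Mmp2, a gelatinase, had 115, 129.7, 133 and 126 CPM with PARPi+anti-VEGFA, against 85.9, 82.7 and 75.8 CPM in untreated tumours (change 0.63 ± 0.10, adjusted p = 9.27e-04). Mmp9, the gelatinase of myeloid cells, rose by 1.32 ± 0.28, the inhibitor Timp1 by 0.92 ± 0.19 and the membrane protease Adam8 by 0.88 ± 0.18.

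Olaparib's own targets did not pass the test. Parp1 had 287, 280.3, 235 and 236 CPM with PARPi+anti-VEGFA, against 296, 280.1 and 268 CPM in untreated tumours (change -0.12 ± 0.07, adjusted p = 0.276). Parp2 averaged 43.8 ± 2.24 CPM with PARPi+anti-VEGFA (SD, n = 4) and 43.5 ± 2.29 CPM in untreated tumours (SD, n = 3), with a change of 0.01 ± 0.06 (adjusted p = 0.929). Of 14 PARP family genes 3 rose and 1 fell, beside 9.99% higher and 7.80% lower of all genes. Parp3 rose by 0.26 ± 0.07 and Parp14 by 0.43 ± 0.13, and Tnks fell by 0.33 (SE 0.09). These calls were fragile: Parp3 and Tnks were lost without untreated replicate 2 or 3 (adjusted p 0.0616 to 0.0834) and Parp14 without PARPi+anti-VEGFA replicate 3 or 4 or untreated replicate 1 or 3 (adjusted p 0.0540 to 0.131). The family's count of calls was 0 without untreated replicate 3, and 2 without PARPi+anti-VEGFA replicate 3 or 4 or untreated replicate 2. In a fit of these groups alone it was 0.

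Of 20 homologous recombination and fork repair genes 2 rose, close to the 9.99% of all genes, with a median of 0.03 beside -0.02 over all genes. These were Rad51c at 0.50 ± 0.15 (adjusted p = 0.0268) and Fancd2 at 0.45 ± 0.15 (adjusted p = 0.0479). Rad51c was called in no fit that left out PARPi+anti-VEGFA replicate 3 or 4 or any untreated library (adjusted p 0.0516 to 0.115), and Fancd2 in none but the fit without PARPi+anti-VEGFA replicate 2. In the olaparib resistance list, with its drug pumps and end-protection factors, 1 of 12 genes was called, as lower, near the 7.80% of all genes. Trp53bp1, whose loss is known to restore repair in BRCA1-deficient cells, had 97.6, 89.1, 83.9 and 90.7 CPM with PARPi+anti-VEGFA, against 112, 131 and 106 CPM in untreated tumours. The groups did not overlap, and the change was -0.36 ± 0.08 (adjusted p = 0.00530), called without any 1 library but not without the libraries high in adipocyte genes (adjusted p = 0.0555).

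Genes known as p53 targets rose in 5 of 15 cases although the injected cells lack Trp53, with a median of 0.23. Host cells in the tissue carry Trp53, and these genes also respond to other signals. Which cells or signals gave the change was not tested. Pmaip1, the cell death gene of NOXA, had 15, 11.8, 15.7 and 14.9 CPM with PARPi+anti-VEGFA, against 8.25, 7.79 and 8.63 CPM in untreated tumours (change 0.80 ± 0.12, adjusted p = 4.47e-04). Cdkn1a, the cell cycle inhibitor p21, had 26.0, 29.7, 33.8 and 31.9 CPM with PARPi+anti-VEGFA, against 21.2, 20.5 and 19.7 CPM in untreated tumours (change 0.57 ± 0.14, adjusted p = 0.00991). Both were higher in all PARPi+anti-VEGFA tumours. Ccng1 and Aen rose by 0.34 ± 0.08 each, Aen with an adjusted p of 0.0570 without untreated replicate 3. The list count without that library was 3.

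Proliferation genes were all on the positive side, with a median of 0.40, and 5 of 18 passed the test. Plk1, a mitotic kinase, had 36.7, 43.7, 36.6 and 38.4 CPM with PARPi+anti-VEGFA, against 26.1, 23 and 25.8 CPM in untreated tumours (change 0.64 ± 0.13, adjusted p = 0.00287). Rrm2, of nucleotide synthesis, rose by 0.47 ± 0.12 and the cyclin Ccnb2 by 0.48 ± 0.12. Rrm2 was not called without untreated replicate 2 or 3 (adjusted p 0.0516 and 0.0549), and Ccnb2 not without untreated replicate 2 (adjusted p = 0.0614). The count was 8 without PARPi+anti-VEGFA replicate 1, 1 without untreated replicate 2, and 3 without PARPi+anti-VEGFA replicate 2 or untreated replicate 1 or 3. Whether tumour or immune cells gave these reads was not tested.

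The effect of adding anti-VEGFA to olaparib was read by setting the same 4 tumours against the 3 given olaparib alone. Of 18144 genes, 54 were higher and 50 lower with PARPi+anti-VEGFA, 0.573% of those tested (0.298% higher and 0.276% lower), and 2807 had an unadjusted p under 0.05. This comparison shares the PARPi+anti-VEGFA libraries with the one above. Its calls rested on single libraries, with 0 without PARPi replicate 2, 1 without PARPi replicate 3, 17 without PARPi replicate 1, and 3, 10 and 33 without PARPi+anti-VEGFA replicates 3, 4 and 2. Without PARPi+anti-VEGFA replicate 1 it was 205. The quality RNAs averaged 3.75, 4.31 and 2.99 log2 CPM in the PARPi libraries, all above the 2.72 to 2.81 of PARPi+anti-VEGFA, and 1 gene was called with them as a covariate.

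Among the named genes, the largest rise over olaparib alone was of Mmp3, stromelysin. It had 2.53, 3.68, 3.87 and 7.44 CPM with PARPi+anti-VEGFA, against 1.5, 0.675 and 0.604 CPM with PARPi (log2 change 2.22 ± 0.44, adjusted p = 0.0366). Serpina3n had 40.8, 39.7, 42.1 and 50.9 CPM with PARPi+anti-VEGFA, against 23.5, 15.3 and 15.9 CPM with PARPi (change 1.25 ± 0.21, adjusted p = 0.0224). The groups lay apart for both genes, as the rule that chose them required. Dio3, which inactivates thyroid hormone, rose by 1.75 ± 0.38, the eosinophil chemokine Ccl11 by 1.57 ± 0.32, the matrix protein Cilp by 1.28 ± 0.22 and the chemokine Cxcl14 by 1.21 ± 0.24. Spon1 had 117, 136, 139.7 and 143 CPM with PARPi+anti-VEGFA, against 72.5, 69.2 and 80.4 CPM with PARPi (change 0.85 ± 0.11, adjusted p = 0.0104). It was not called in 1 of the fits with a library left out, that without PARPi replicate 2 (adjusted p = 0.0804).

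Falls from olaparib alone included Mme, the cell surface protease neprilysin, with 30.8, 27.5, 21.9 and 24.8 CPM with PARPi+anti-VEGFA, against 44.5, 57.0 and 40.5 CPM with PARPi (change -0.85 ± 0.14, adjusted p = 0.0224). Col10a1 fell by 2.57 (SE 0.53), the kinase Tssk3 by 1.10 (SE 0.22), the immune inhibitory ligand Vtcn1 by 0.96 (SE 0.20), Frem3 by 0.91 (SE 0.20) and Col17a1 by 0.83 (SE 0.17). Each of the 13 genes named so far in this comparison was lost without PARPi replicate 2, and all but Spon1 also without PARPi+anti-VEGFA replicate 3. Of the vessel genes, Angpt1 had 6.57, 6.48, 8.42 and 6.95 CPM with PARPi+anti-VEGFA, against 3.89, 3.66 and 3.50 CPM with PARPi. It rose by 0.95 ± 0.18 (adjusted p = 0.0301), and Plvap by 0.54 ± 0.12 (adjusted p = 0.0453). Both calls were lost without any of the 3 PARPi libraries and without PARPi+anti-VEGFA replicate 3 or 4, and that of Plvap without PARPi+anti-VEGFA replicate 1 or 2 too.

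**Figure D5:**
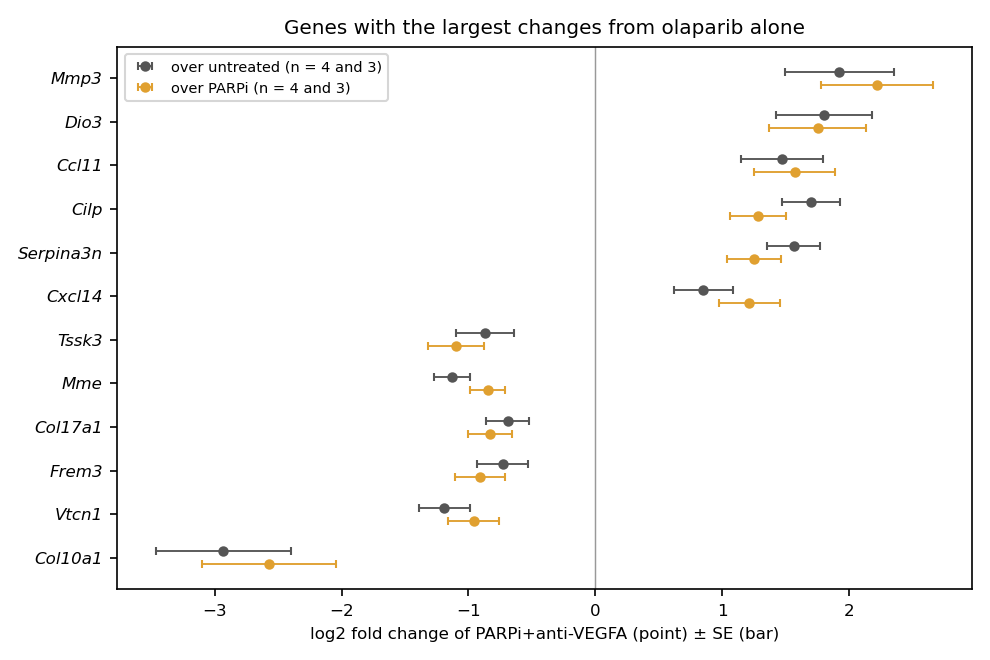
Log2 fold change ± SE of PARPi+anti-VEGFA (n = 4) over untreated tumours (grey, n = 3) and over PARPi tumours (yellow, n = 3) for the genes with the largest called changes from olaparib alone. Mmp3 is higher by 1.92 and 2.22 and Col10a1 lower by 2.93 and 2.57 on the log2 scale against untreated and PARPi tumours, and the PARPi+anti-VEGFA libraries are shared by both comparisons.

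None of the T cell, cytotoxic, natural killer, regulatory, B cell or plasma cell list members was called, with median changes over PARPi of 0.50, 0.71, 0.60, 0.32, 0.14 and 0.31 beside -0.00 over all genes. Cd8a had 14.3, 10.5, 22 and 17.5 CPM with PARPi+anti-VEGFA, against 7.60, 6.84 and 7.95 CPM with PARPi, with no overlap (change 1.11 ± 0.26, adjusted p = 0.0613). Vegfa had 509.8 to 658 CPM with PARPi+anti-VEGFA, against 542, 643 and 575 CPM with PARPi, which lay within that range (change -0.03 ± 0.18, adjusted p = 0.961). Rgs5 had 158, 98.5, 84.1 and 75.5 CPM with PARPi+anti-VEGFA, against 145, 149 and 161 CPM with PARPi (change -0.54 ± 0.21, adjusted p = 0.229).

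Against olaparib with checkpoint blockade, 8 genes were higher and 21 lower with PARPi+anti-VEGFA, 0.160% of those tested (0.0441% higher and 0.116% lower), and 1949 had an unadjusted p under 0.05. These groups differ in which antibodies joined olaparib, so a change can come from either. The count was 7 without PARPi+anti-VEGFA replicate 2, 13 without PARPi+anti-VEGFA replicate 3 and 9 without PARPi+checkpoint blockade replicate 3. Chil3, a chitinase-like protein of alternatively activated macrophages, had 0.796, 0.589, 1.60 and 1.36 CPM with PARPi+anti-VEGFA, against 78.5, 69.0 and 477 CPM with PARPi+checkpoint blockade (change -7.61 ± 0.89, adjusted p = 0.00190). Ighm, the IgM heavy chain, had 1517, 2133, 1313 and 2411 CPM with PARPi+anti-VEGFA, against 9200.4, 13202 and 19234 CPM with PARPi+checkpoint blockade (change -2.91 ± 0.38, adjusted p = 0.00403). The groups lay far apart, though a lack of overlap was part of the choice of these genes. Both calls held without any 1 library. Retnla, Rnase2a, the interleukin 5 receptor Il5ra and Col6a5 fell by 4.80 (SE 0.81), 6.16 (SE 0.95), 3.22 (SE 0.52) and 2.70 (SE 0.49). All 4 were lost without PARPi+checkpoint blockade replicate 3 (adjusted p 0.0549 to 0.166) and PARPi+anti-VEGFA replicate 2 (adjusted p 0.0562 to 0.113).

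The few genes higher with PARPi+anti-VEGFA than with checkpoint blockade included Lyz1, a lysozyme with a near-identical copy. It had 8.16, 7.68, 9.15 and 7.90 CPM with PARPi+anti-VEGFA, against 3.26, 1.67 and 2.88 CPM with PARPi+checkpoint blockade (change 1.66 ± 0.23, adjusted p = 0.00498), and was called without any 1 library. Nxf3, Mmp9, the interleukin 12 subunit Il12b, Rad51c and the RNA sensor Ifih1 rose by 1.61 ± 0.28, 1.46 ± 0.28, 1.00 ± 0.19, 0.88 ± 0.15 and 0.49 ± 0.09. Each of these 5 was lost without PARPi+checkpoint blockade replicate 3 and without PARPi+anti-VEGFA replicate 2, among others, with an adjusted p of at most 0.199.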

How the data were processed

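RNA of 20 tumours was sequenced from stranded whole-transcriptome libraries, per the labels. Reads were aligned with STAR to GRCm38 and counted with HTSeq, per the submitters' processing notes, and versions, annotation and strand setting are not given in the sources used here. The authors deposited raw read counts per gene, and they also deposited log2 values of RPKM per coding sequence with 1 added.

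The counts of all 20 libraries were fitted in R 4.3.3 with edgeR 4.0.16 (TMM, filterByExpr with minimum count 10 and minimum total 15, quasi-likelihood F test, 1 coefficient per group, no covariate), with adjustment over all 18144 genes. Genes left out by the filter held at most 0.0518% of a library. The SE is the absolute log2 change over the square root of F. GENCODE M21 gave symbols for 55227 identifiers. The common biological coefficient of variation was 0.208. Chi-squared per degree of freedom between libraries of a group was at least 19.9, so no library was a copy of another. A list's level in a library is its members' average log2 CPM (prior count 2), and list members were described by counts and medians only.

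Named genes were the 12 largest called changes each way and the 10 smallest p among genes with at least 1 CPM on average and no overlap between groups, leaving out models with no name and the segments of immunoglobulin and T cell receptors, up to 4 members with the smallest p of each list, the VEGF ligands and receptors, Parp1, Parp2, Brca1, Trp53, Cd274 and Ctla4, and the 6 largest each way in the other comparisons. The lack of overlap was part of their choice. Any other gene was chosen after its values were seen. Some genes that the rule names are not reported here. The groups, lists and tests were chosen with earlier results of these data known. Alternatives were DESeq2 size factors, no filter, the Wald test of DESeq2 1.42.0, the compared groups alone, replicate number as a block, limma 3.58.1 on the deposited log2 RPKM, each library left out, a covariate of library quality, and the fit without libraries whose acinar genes averaged above 2 log2 CPM. A fit without libraries in which adipocyte genes exceeded the same limit was chosen after seeing the data.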

Additional observations from a re-analysis of the deposited data

Results flagged for a closer look

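In the 4 PARPi+anti-VEGFA libraries 233 values were examined. In 9 of them 1 library stood apart from the other 3 by a gap over Dixon's critical value for groups of this size. Chance gives such a gap in about 1 in 20 groups of independent, unselected values. Many of these values were of genes chosen by a small p or a lack of overlap, so 9 of 233 cannot be set against that rate. Replicate 1 had Ptprb at 22.8 CPM, above 16.3 to 16.6 CPM in the others, and Irf7 at 87.0 CPM, below 119 to 124 CPM. Replicate 2 was below the others in 4 genes. These were Derl3 at 15.7 CPM (others 26.6 to 27.8 CPM), Igkc at 11697 CPM (others 19163 to 20438 CPM), Prg2 at 12.1 CPM (others 15 to 15.1 CPM) and Kcnmb4 at 1.35 CPM (others 1.93 to 1.97 CPM). Replicate 4 had Adam8 at 41.2 CPM, above 26.8 to 28.8 CPM. Replicate 3 had a mean of 3.47 log2 CPM over the dendritic cell genes, above 3.06 to 3.13, and of 2.81 over the library quality RNAs, above 2.72 to 2.74.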

How the results depend on the processing

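Against untreated tumours 3228 genes were called. The count was 3168 with DESeq2's size factors, 2522 with no filter on low counts, 2449 in a fit of these groups alone, 2454 without the libraries with acinar RNA, 3767 with DESeq2 and 2838 with limma on the deposited log2 RPKM. It was 1991 (without untreated replicate 3) to 3171 with 1 library left out, 1609 without the libraries with adipocyte RNA and 0 with the library quality covariate, which also left 0 of the 213 list members called, although list medians such as that of T cell genes (1.06 with it, 1.10 without) could stay as large. The share of calls that were higher was 56.1%, and 66.1% with no filter.

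Against PARPi the count of 104 became 649 with DESeq2, 54 with limma, 10 without the libraries with adipocyte RNA, 1 with the quality covariate and 0 (without PARPi replicate 2) to 205 (without PARPi+anti-VEGFA replicate 1) with 1 library left out. In the fit of these groups alone 76.1% of calls were higher, against 51.9%. Against PARPi+checkpoint blockade the count of 29 became 58 with no filter, 5 in the fit of these groups alone, 210 with DESeq2, 17 with the quality covariate, 9 without the libraries with acinar RNA, 10 without those with adipocyte RNA and 7 (without PARPi+anti-VEGFA replicate 2) to 33 with 1 library left out.

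With the replicate number as a block, 2906, 93 and 23 genes were called in the 3 comparisons. Deviations of same-numbered PARPi+anti-VEGFA and untreated libraries from their group means correlated at -0.09, -0.02 and -0.04 across genes. Over all pairs of libraries the correlations ran from -0.09 to 0.09, which gives no sign of pairing. Because deviations cancel within a group, this check cannot exclude it.

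Of 190 named genes 167 were called against untreated tumours, and 121 of them in every fit with 1 library left out. The quality covariate ended all 167 calls. Under it the direction changed for Vegfa (0.29), Flt1 (0.08), Robo4 (0.03), Ptprb (0.15), Brca1 (-0.25), Mir6236 (0.28), Rn7sk (0.25), Nxf3 (0.34) and Il5ra (-1.03). It also changed for Vegfd (-0.19) and Il5ra (-0.66) without the libraries with adipocyte RNA, and for Parp2 (-0.04) without those with acinar RNA. With 1 library left out, the change ran from -0.16 to 0.04 for Flt4, -0.02 to 0.05 for Parp2 and -0.26 to 0.68 for Il5ra. The causes were not tested.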

Other observations

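In lists not described above, called shares are to be read beside the 9.99% of all genes called higher and 7.80% called lower. Of 10 unfolded protein response genes 3 rose, with a median log2 change of 0.20, and 1 without untreated replicate 3. Sdf2l1, a chaperone partner of the endoplasmic reticulum, had 18.6, 17.5, 20.6 and 21.4 CPM with PARPi+anti-VEGFA, against 13.5, 12.5 and 11.8 CPM in untreated tumours (change 0.63 ± 0.12, adjusted p = 0.00222). Hsp90b1 rose by 0.45 ± 0.12, a call lost without untreated replicate 3 (adjusted p = 0.0581). Of 11 immediate early and heat shock genes 3 rose, and 1 without PARPi+anti-VEGFA replicate 1 or 2 or untreated replicate 1 or 3. Junb, a component of the factor AP-1, had 61.3, 55.0, 46.5 and 40.9 CPM with PARPi+anti-VEGFA, against 29.2, 19.7 and 25.3 CPM in untreated tumours (change 1.04 ± 0.20).

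Of 14 fibroblast and TGF-beta genes 2 rose, and of 10 mast cell and eosinophil genes 1, both near the share of all genes. Thy1, a surface glycoprotein of fibroblasts and T cells, had 70.5, 67.8, 65.2 and 68.4 CPM with PARPi+anti-VEGFA, against 49.6, 46.3 and 45.9 CPM in untreated tumours (change 0.52 ± 0.08, adjusted p = 5.42e-04), and Fap rose by 0.56 ± 0.14. The eosinophil granule gene Prg2 rose by 1.25 ± 0.31, a call lost without untreated replicate 1 (adjusted p = 0.0586). Of 9 adipocyte genes 6 rose, and 0 without PARPi+anti-VEGFA replicates 2 and 3. Plin1, a lipid droplet protein of fat cells, had 0.383, 2.83, 1.71 and 0.265 CPM with PARPi+anti-VEGFA and 0.0437 ± 0.0194 CPM in untreated tumours (SD, n = 3). Lpl, which macrophages and tumour cells also express, fell by 0.30 (SE 0.06). The 12 acinar genes had a median change of 5.85 and none was called by edgeR, with 2 at an unadjusted p under 0.05. Without the libraries high in adipocyte genes, which left PARPi+anti-VEGFA replicates 1 and 4, 11 were called higher. Of 8 erythroid genes 2 fell, and 0 without untreated replicate 2. Slc4a1, of the red cell membrane, had 0.118, 0.118, 0 and 0 CPM with PARPi+anti-VEGFA, against 0, 12.7 and 3.08 CPM in untreated tumours. Without untreated replicate 2 the adjusted p of Slc4a1 was 0.143, and it was also lost without PARPi+anti-VEGFA replicate 3 or 4 (adjusted p 0.0639 and 0.0606). Of 6 skeletal muscle genes Actn3 fell, by 0.94 (SE 0.21), and 3 muscle genes were not tested.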
